A study of Mus musculus with 6 samples.

Results

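The 9 genes described here encode the chemokines that organise lymphoid tissue and the receptors that read them: Cxcl13 and its receptor Cxcr5, Ccl19 and Ccl21a with their shared receptor Ccr7, Ccl20 with Ccr6, and Cxcl12 with Cxcr4. They were chosen by gene symbol from the 18477 genes in the count table, and all 9 were present and had enough reads to be tested. The libraries are bulk RNA-seq of colon from male C57BL/6 mice aged 6 to 8 weeks. Every mouse drank 2% dextran sulfate sodium (DSS), a polymer that injures the colonic epithelium, from day 8 to day 14. The DSS group (n = 3 mice) received phosphate-buffered saline by daily gavage over the 14 days, and the DSS+BV group (n = 3 mice) received live Bacteroides vulgatus, a common gut bacterium, in the same buffer. No library without DSS was analysed here, so the values compare gavage with and without the bacterium in injured colon, and do not show what DSS itself changed.

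Homeostatic chemokines are made steadily by stromal, endothelial and epithelial cells and set where lymphocytes settle. CXCL13 from follicular stroma draws CXCR5+ B cells into follicles, while CCL19 and CCL21 draw CCR7+ naive T cells and mature dendritic cells into the T zone. CCL20, made by the epithelium that covers lymphoid follicles, recruits CCR6+ B cells, T cells and dendritic cells, and CXCL12 from fibroblasts and endothelium retains CXCR4+ cells of many kinds. In the mouse colon the follicle and T zone chemokines are concentrated in colonic patches and isolated lymphoid follicles, which are unevenly spaced along the wall.

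Promoter sequence is shown for 3 of the ligands because CXCL13, CCL19 and CCL20 are textbook targets of NF-kappaB signalling. Each line gives the 250 bases before the RefSeq start of the gene in GRCm38.p6, read 5′ to 3′ along the gene's own strand. Capitals mark matches to GGGNNNNNCC, a common form of the sequence that NF-kappaB dimers bind, searched on both strands. Sites of other forms were not searched and are not marked.
Cxcl13, chr5:95956689-95956938 (+): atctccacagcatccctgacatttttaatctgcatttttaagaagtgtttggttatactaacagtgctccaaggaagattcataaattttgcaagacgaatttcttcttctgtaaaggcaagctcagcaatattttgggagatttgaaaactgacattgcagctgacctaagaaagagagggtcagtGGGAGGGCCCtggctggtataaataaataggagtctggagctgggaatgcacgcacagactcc
Ccl19, chr4:42756366-42756615 (-): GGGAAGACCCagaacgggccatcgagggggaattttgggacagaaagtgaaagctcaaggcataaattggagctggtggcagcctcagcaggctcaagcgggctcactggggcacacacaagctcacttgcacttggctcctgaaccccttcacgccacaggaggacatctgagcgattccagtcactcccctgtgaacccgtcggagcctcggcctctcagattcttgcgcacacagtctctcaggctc
Ccl20, chr1:83116516-83116765 (+): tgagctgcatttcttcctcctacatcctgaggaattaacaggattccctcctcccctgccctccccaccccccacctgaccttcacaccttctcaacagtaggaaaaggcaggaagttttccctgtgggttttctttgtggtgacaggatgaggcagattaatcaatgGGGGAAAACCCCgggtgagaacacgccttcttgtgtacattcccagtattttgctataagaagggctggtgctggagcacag
The pattern lay 63 bases before the start of Cxcl13, 250 bases before that of Ccl19, and from 82 to 80 bases before that of Ccl20, where overlapping matches on the 2 strands merge into 1 run of capitals. The same pattern lay 36 bases before a start of Cxcl12 and 81 and 80 bases before a start of Ccr6. It is common: 45.8% of the 32851 promoter windows of this length hold it. TATAAA, the letters of a TATA box, lay 46 bases before the start of Cxcl13 and 32 and 30 bases before a start of Cxcr4. These letters were present in 12.4% of windows. A match is a run of letters and not evidence of binding. Windows were matched for 7 of the 9 genes, all but Cxcr5 and Ccr7.

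The 6 libraries held 15293276 to 17254343 expected counts, so depth differed little between mice. Levels are given as CPM, the counts of a gene divided by those of its library on a common scale after TMM scaling. Differences are log2 fold changes of DSS+BV against DSS, tested by quasi-likelihood in edgeR, with p-values adjusted by Benjamini-Hochberg over 14579 genes. A gene was called at an adjusted p under 0.05 with a log2 fold change beyond 1 in either direction. Colon epithelial genes, summed over a list of 12, reached 11120 to 20204 CPM in DSS and 19424 to 39108 CPM in DSS+BV. Of this sum, Muc2 gave 2339 to 10171 CPM in DSS and 6878 to 20700 CPM in DSS+BV. Car1 gave 825 to 1041 CPM in DSS and 924 to 10453 CPM in DSS+BV. The log2 fold changes of Epcam and Cdh1 were 0.21 and 0.18, and those of Car4 and Aqp8 were -1.10 and -1.03. Of the 12, 10 had a log2 fold change above 0, whereas 51.5% of all tested genes were below 0. At an unadjusted p under 0.05, 3 of the 12 were higher, against 3.4% of all tested genes. None of the 12 was called, against 0.0892% of all tested genes called lower and 0% called higher. The part of epithelial genes in the differences described here was not tested. With 3 mice a group the groups are small, and the biological coefficient of variation over all genes was 32.1%.

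All 9 genes had a log2 fold change below 0, and none was called lower (0.0892% of all tested genes were) or higher (0% were) by edgeR. Of the 9, Cxcl13, Cxcl12 and Cxcr4, were lower at an unadjusted p under 0.05, which is 3 genes, against 9.12% of all tested genes, and 0 were higher, against 3.4%. DESeq2 called 1 of the 9 lower, Cxcl13, against 1.78% of the genes it tested, and 0 higher, against 0.291%. The median log2 fold change of the 9 was -0.78, beside -0.01 over all tested genes, of which 51.5% were below 0. Mice given the same treatment differed widely in most of these genes. Within DSS the span from lowest to highest library ran from 1.65-fold for Cxcl12 to 17.6-fold for Cxcr5. Within DSS+BV it ran from 1.49-fold for Cxcl12 to 59.0-fold for Ccl19. Over all 6 libraries, both groups together, 8 of the 9 spanned between 5.64-fold and 59.0-fold from lowest to highest. The median of this span was 1.78-fold over 14046 genes with at least 1 CPM on average and reads in every library.

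**Figure D1:**
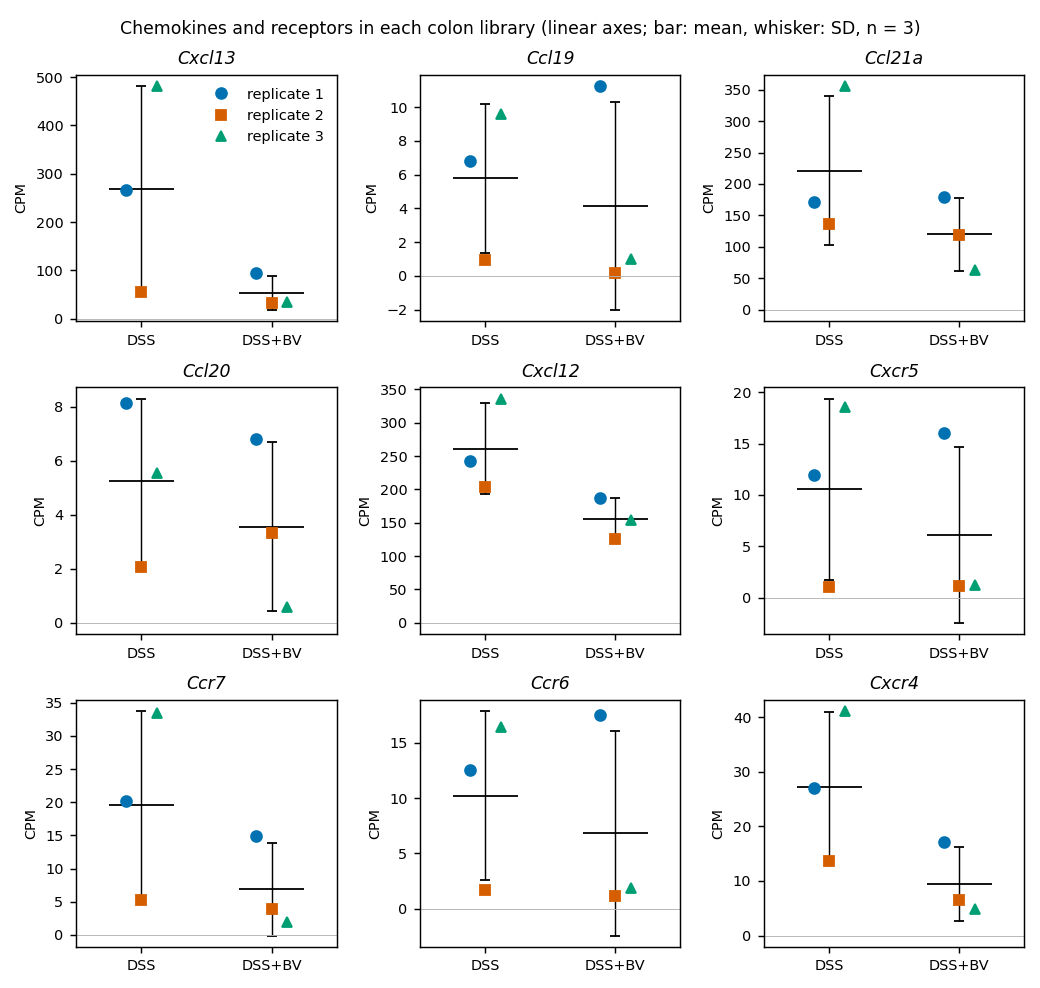
CPM (vertical axis, linear, a scale for each gene) of the 9 genes in each DSS and DSS+BV library. Points are mice, marked by replicate number within the group, the horizontal bar is the mean and the whisker the SD (n = 3). DSS 2 is the lowest DSS library for all 9 genes, and DSS+BV 1 is the highest DSS+BV library for all 9. Whiskers that pass below 0 show only that the SD exceeds the mean.

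Cxcl13, the B cell chemoattractant made by follicular stroma (chr5:95956939-95961068), measured 266.8, 54.3 and 482 CPM in the DSS mice, in the order DSS 1, 2 and 3. The DSS+BV mice, in the same order, measured 94.8, 31.7 and 35.2 CPM. The groups overlapped because DSS 2 lay below DSS+BV 1, while DSS 1 and DSS 3 lay above every DSS+BV library. The means were 268 ± 214 CPM and 53.9 ± 35.5 CPM (SD, n = 3 each). Their log2 fold change was -2.31 with a standard error of 0.81 (edgeR, unadjusted p = 0.0257, adjusted p = 0.358). DESeq2 gave nearly the same fold change, -2.29, with an adjusted p of 0.0447, so the call depended on the tool, and across all alternatives the adjusted p ranged from 0.0447 to 0.903. Cxcl13 had the lowest log2 fold change of the 9 genes.

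Cxcr5, the receptor for CXCL13 on follicular B cells and follicular helper T cells (chr9:44511787-44526444), read 11.98, 1.06 and 18.6 CPM in the DSS mice and 16.0, 1.15 and 1.201 CPM in the DSS+BV mice. Of the 6 libraries 3 were high and 3 were at the level of 17 to 19 expected counts, and each group held libraries of both kinds. The log2 fold change of -0.78 had a standard error of 1.27 (edgeR adjusted p = 0.824). The largest difference for Cxcr5 was therefore within groups: 17.6-fold among the DSS mice and 13.98-fold among the DSS+BV mice. DSS+BV 1 was the third highest of the 6 libraries for Cxcl13 and the second highest for Cxcr5.

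Ccl19, a T zone chemokine made by fibroblastic reticular cells (chr4:42754525-42756365), was the scarcest of the ligands beside Ccl20. It read 6.83, 0.933 and 9.61 CPM in DSS and 11.3, 0.191 and 1.01 CPM in DSS+BV, with the highest library and the lowest library both in DSS+BV. Its 59.0-fold span rests on 2.64 expected counts in DSS+BV 2, and its log2 fold change was -0.48 with a standard error of 1.33 (edgeR adjusted p = 0.904). Leaving out DSS 3 turned it to 0.10, leaving out DSS+BV 2 turned it to 0.09, and leaving out DSS+BV 1 moved it to -3.24, so no direction can be given for Ccl19.

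Ccl21a, which encodes the CCL21 of lymphoid stroma and high endothelial venules (chr4:42772860-42773991), was far more abundant. It read 171, 136 and 356 CPM in the DSS mice and 179, 119 and 63.2 CPM in the DSS+BV mice. DSS 3 stood above the rest and DSS+BV 3 below, with the other 4 libraries between 119 and 179 CPM and mixed by group. The log2 fold change was -0.88 with a standard error of 0.48 (edgeR adjusted p = 0.501).

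Ccl21a is 1 of several near-identical gene copies in the mouse, so reads can be shared between them. Over the 402 coding bases, Ccl21d and Gm13304 each differed from Ccl21a by 2 substitutions, T84A and C194T, counted from 1 at the A of the start codon, which is 99.5% identity. The stretch from coding base 164 to 223, from the GENCODE M21 transcripts on GRCm38, is shown because it holds the second of these, in capitals.
Ccl21a: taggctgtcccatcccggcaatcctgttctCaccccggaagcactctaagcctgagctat
Ccl21d: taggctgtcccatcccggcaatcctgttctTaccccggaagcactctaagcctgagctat
Gm13304: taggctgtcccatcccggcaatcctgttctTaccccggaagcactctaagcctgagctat
Apart from base 194 the 3 stretches are the same. In the count table Ccl21c, Ccl21d and Gm13304 carried exactly equal expected counts in every library, 77.65 to 321.56. A further copy, Gm1987, held 574.41 in DSS 3 and 570.17 in DSS+BV 1 and was listed at 0 in the other 4 libraries. Ccl21a took 73.5% to 88.5% of the summed counts. With all 5 copies summed the log2 fold change was -0.83 (edgeR adjusted p = 0.548), close to the -0.88 of Ccl21a alone.

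**Figure D2:**
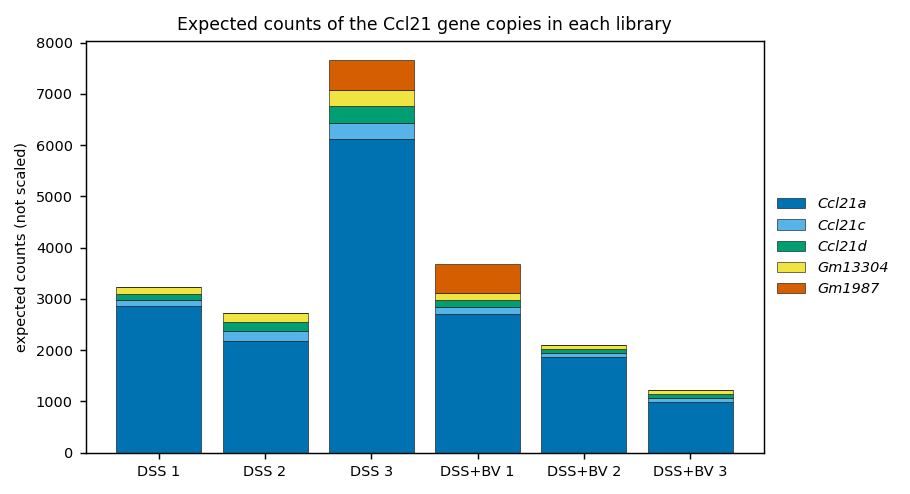
Expected counts (vertical axis, not scaled for depth) of Ccl21a and 4 near-identical copies, stacked for each of the 6 libraries. The total runs from 1231.53 in DSS+BV 3 to 7653.73 in DSS 3, Ccl21a is the main part everywhere, and Gm1987 appears in DSS 3 and DSS+BV 1 alone.

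Ccr7, the receptor for CCL19 and CCL21 on naive T cells, B cells and mature dendritic cells (chr11:99144199-99155077), read 20.1, 5.28 and 33.4 CPM in the DSS mice and 14.9, 3.89 and 1.90 CPM in the DSS+BV mice. DSS 1 and DSS 3 were the highest libraries, DSS+BV 1 came next, and DSS 2 lay between it and the other DSS+BV mice. For Ccr7 the log2 fold change was -1.51 with a standard error of 0.90 (edgeR adjusted p = 0.533).

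Ccl20, the chemokine of follicle-associated epithelium (chr1:83116766-83119167), read 8.14, 2.05 and 5.53 CPM in DSS and 6.79, 3.31 and 0.569 CPM in DSS+BV. DSS+BV 3 was the lowest with 9 expected counts, and the other 5 libraries were interleaved. Its log2 fold change was -0.56 with a standard error of 0.84 (edgeR adjusted p = 0.808). Its receptor Ccr6, carried by naive and memory B cells, by T helper 17 cells and by innate lymphoid cells (chr17:8236041-8258519), read 12.5, 1.68 and 16.4 CPM in DSS and 17.5, 1.15 and 1.83 CPM in DSS+BV. The highest Ccr6 library was thus a DSS+BV mouse, with 3 high and 3 low libraries split as for Cxcr5. Ccr6 had a log2 fold change of -0.58 with a standard error of 1.16 (edgeR adjusted p = 0.864).

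Cxcl12, made by fibroblasts and endothelium throughout the gut wall (chr6:117168535-117181368), was the exception among the 9. It read 243, 204 and 336 CPM in the DSS mice and 187, 126 and 154 CPM in the DSS+BV mice. It was the only one of the 9 whose groups did not overlap, lower in DSS+BV, against 11.3% of all tested genes; 0 were higher without overlap, against 6.37%. On average it measured 261 ± 68.0 CPM in the DSS mice and 156 ± 30.8 CPM in the DSS+BV mice (SD, n = 3). This is a log2 fold change of -0.75 with a standard error of 0.24 (edgeR, unadjusted p = 0.0176, adjusted p = 0.336). It had the smallest standard error and the smallest span, 2.67-fold, of the group. Genes of the fibroblast list were also lower: their summed level was 4266 to 4504 CPM in DSS and 1565 to 2297 CPM in DSS+BV. Of these, 9 of 12 were lower at an unadjusted p under 0.05, against 9.12% of all tested genes, with 0 called by edgeR. Endothelial genes summed to 503 to 689 CPM in DSS and 321 to 449 CPM in DSS+BV. Of these, 7 of 12 were lower at an unadjusted p under 0.05, with 0 called by edgeR. DSS 3 was the highest library for Cxcl12 and for the endothelial sum, but the lowest DSS library for the fibroblast sum. Cxcl12 was not measured against the endothelial genes. Measured against the mean of the fibroblast genes, Cxcl12 differed by 0.25 on the log2 scale, above 0, (exact two-sided permutation p = 0.3). The part of fibroblast and endothelial content in the Cxcl12 difference was not tested. In bulk tissue, fewer cells of a type and less RNA per cell cannot be told apart.

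Cxcr4, the CXCL12 receptor on lymphocytes and myeloid cells (chr1:128588199-128592299), read 27.1, 13.6 and 41.1 CPM in DSS and 17.2, 6.43 and 4.80 CPM in DSS+BV. DSS+BV 1 exceeded DSS 2, and the other DSS+BV libraries were below every DSS library. The log2 fold change was -1.52 with a standard error of 0.59 (edgeR, unadjusted p = 0.0377, adjusted p = 0.384). Most of the listed neutrophil and macrophage genes, whose cells also carry CXCR4, had log2 fold changes below 0 as well. Of 12 tested neutrophil genes 6 were called lower by edgeR, against 0.0892% of all tested genes. At an unadjusted p under 0.05, 10 were lower, against 9.12% of all tested genes. The median log2 fold change of the 12 was -3.43, with S100a8, a calprotectin subunit, at -4.42 (edgeR adjusted p = 0.0127). The groups did not overlap, lower in DSS+BV, for 9 of the 12, against 11.3% of all tested genes. The list's sum did overlap, at 529 to 1140 CPM in DSS and 216 to 611 CPM in DSS+BV. Its most abundant gene, Ly6g, overlapped between groups and varied 44.8-fold between libraries. The macrophage and monocyte list summed to 1000 to 2191 CPM in DSS and 655 to 1525 CPM in DSS+BV, which overlap. Of its 14 genes, 13 were below 0, against 51.5% of all tested genes, with a median of -0.88 and 0 called. At an unadjusted p under 0.05, 2 of the 14 were lower, against 9.12%, and 2 were lower without overlap, against 11.3%. The part of these cells in the Cxcr4 difference was not tested.

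**Figure D3:**
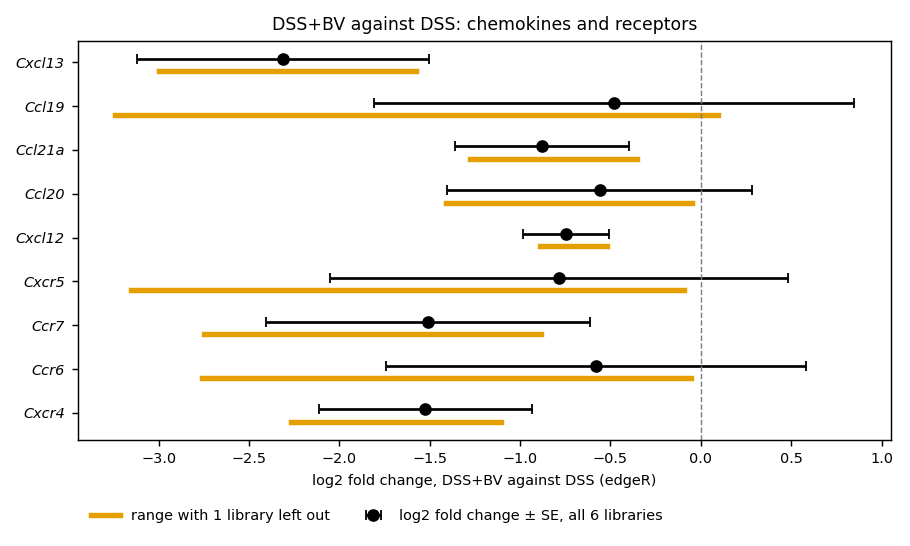
Log2 fold change of DSS+BV against DSS (horizontal axis) for each of the 9 genes, as a point with its standard error from all 6 libraries, above a bar for the range obtained when each library in turn is left out. All 9 points lie below 0, and the Ccl19 bar alone reaches past 0, to 0.10.

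Single libraries moved these differences by a wide margin. Without DSS+BV 1, 8 of the 9 genes, all but Ccl20, were lower at an unadjusted p under 0.05, against 11% of the genes tested in that fit, and the median of the 9 was -2.75. Without DSS+BV 2 the count was 0, against 4.09%, and it was 1 without DSS 1 (10.6%), DSS 3 (4.7%) or DSS+BV 3 (5.64%). Leaving out DSS 2 kept the count at 3 (9.02%). No gene of the 9 was called by edgeR in any of these fits. Few were called among all tested genes either: 3 lower and 4 higher without DSS+BV 1, 1 lower without DSS 2 and 0 in the other fits. Cxcr5 ran from -3.15 without DSS+BV 1 to -0.09 without DSS 3.

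The same 3 libraries were high for most of the 9 genes, though their order varied. DSS 1, DSS 3 and DSS+BV 1 held the 3 highest values for 8 of them, the exception being Cxcl12, in which DSS 2 exceeded DSS+BV 1. The genes differed in the place of DSS+BV 1. It ranked 1 of 6 for Ccl19 and Ccr6 and 2 of 6 for Cxcr5, Ccl21a and Ccl20, but 3 of 6 for Cxcl13, Ccr7 and Cxcr4 and 4 of 6 for Cxcl12.

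**Figure D4:**
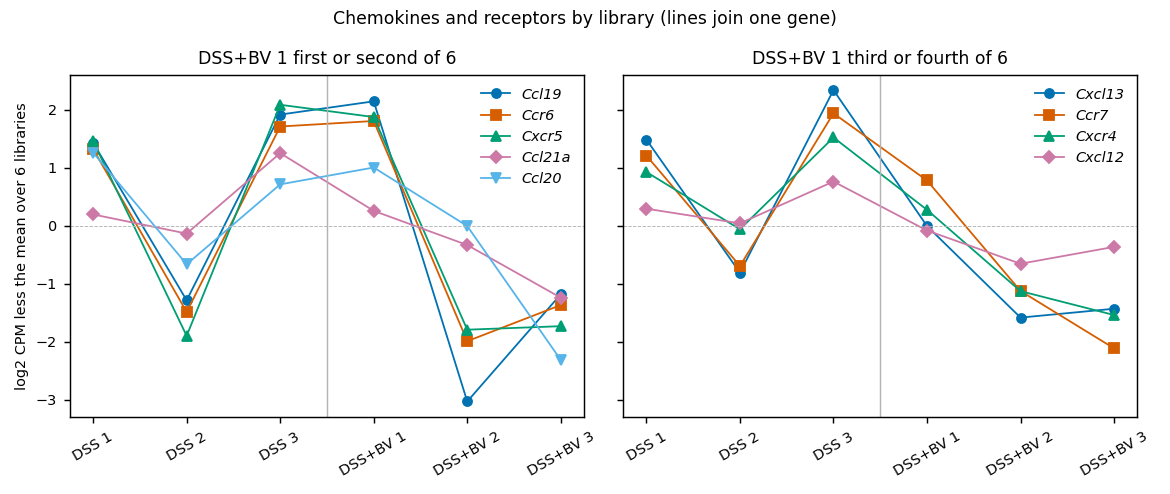
Log2 CPM of each gene less its mean over the 6 libraries (vertical axis), by library, with a line joining the points of a gene and the DSS libraries left of the vertical rule. The left panel holds the 5 genes for which DSS+BV 1 ranks 1 or 2 of 6, and the right panel the 4 for which it ranks 3 or 4. DSS+BV 2 and DSS+BV 3 lie below 0 for all 9 genes, and DSS 2 lies below 0 for all but Cxcl12.

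Markers of B cells and of follicle stroma followed the same split of libraries. The 15 B cell genes summed to 282, 36.9 and 454 CPM in DSS 1, 2 and 3 and to 408, 21.4 and 24.8 CPM in DSS+BV 1, 2 and 3, a 21.2-fold span, with none of the 15 at 0 in all libraries. The follicular stroma list, which shares Cr2 and Fcer2a with the B cell list, summed to 262 to 1052 CPM in DSS and 192 to 730 CPM in DSS+BV. T cell genes varied less, from 59.6 to 147 CPM, with Cd3e at 1.99 to 4.48 CPM in DSS and 2.36 to 4.82 CPM in DSS+BV. Dendritic cell genes summed to 57.5 to 178 CPM in DSS and 43.9 to 117 CPM in DSS+BV. The T cell, dendritic cell, macrophage and neutrophil sums were also highest in DSS 3, DSS 1 and DSS+BV 1. The split was thus not particular to B cells or follicle stroma. The fibroblast and endothelial sums did not follow it, with DSS 2 above DSS+BV 1. None of the 15 B cell genes and none of the 15 T cell genes was lower or higher at an unadjusted p under 0.05 (edgeR). Over all tested genes 9.12% were lower and 3.4% higher at that p, so few would be found among 15 genes at those shares. By edgeR 0 were called, against 0.0892% of all tested genes called lower and 0% called higher. The part of lymphoid content in the chemokine and receptor differences was not tested beyond the ratios that follow.

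Cxcr5 and Ccr6 tracked the B cell genes closely. Cxcr5 alone spanned 3.98 on the log2 scale over the 6 libraries, but 1.002 once the mean of the B cell genes in the same library was taken off, and Ccr6 went from 3.797 to 1.25. Relative to the B cell genes, Cxcr5 stood at -0.51 ± 0.13 in DSS and -0.04 ± 0.45 in DSS+BV (SD, n = 3), a difference of 0.46 (exact two-sided permutation p = 0.3). Ccr6 was higher by 0.53 on the same relative scale (exact p = 0.3). The smallest exact p that 3 mice against 3 allow is 0.1.

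Ccr7, Cxcr4 and Cxcl13 did not keep a fixed ratio to the B cell genes. Relative to them Cxcr4 spanned 3.31 on the log2 scale, more than its 3.06 alone, because it was relatively high in the libraries with few B cell genes. Cxcl13 stood at 4.05, 4.87 and 4.24 in DSS and at 2.03, 4.99 and 4.79 in DSS+BV, so 5 libraries lay within 4.05 to 4.99 and DSS+BV 1 lay apart, with less Cxcl13 relative to its B cell genes. The group differences were -0.07 for Ccr7, -0.03 for Cxcr4 and -0.45 for Cxcl13 (exact two-sided permutation p of 1, 1 and 0.9), and each turned above 0 when DSS+BV 1 was left out, to 0.58, 0.89 and 0.51. Relative to T cell genes the differences were -1.29 for Ccr7, -0.69 for Ccr6 and -1.03 for Ccl19 (exact p of 0.2, 0.6 and 0.7). Ccl20 relative to colon epithelial genes differed by -1.30 (exact p = 0.5). Over these 10 relative measures, the adjusted p was 0.75 to 1.

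**Figure D5:**
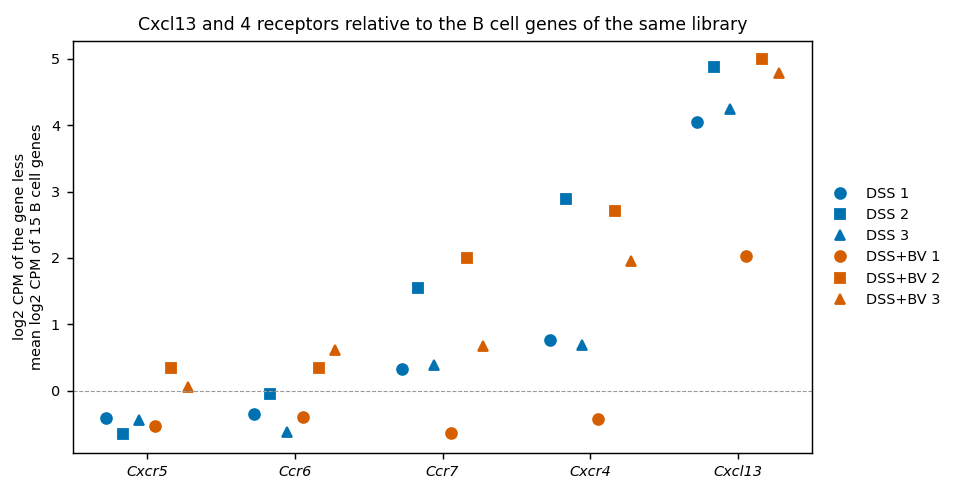
Log2 CPM of Cxcr5, Ccr6, Ccr7, Cxcr4 and Cxcl13 less the mean log2 CPM of 15 B cell genes in the same library (vertical axis); colour marks the group and shape the replicate. Cxcr5 and Ccr6 stay within -0.65 to 0.62, while DSS+BV 1 is the lowest library for Ccr7, Cxcr4 and Cxcl13.

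Levels were compared between genes per kilobase of the longest coding transcript. The median over the 6 libraries was 177 CPM per kb for Ccl21a, 64.8 for Cxcl13 and 34.8 for Cxcl12, followed by 8.54 for Cxcr4, 5.10 for Ccr7, 5.07 for Ccl19, 4.09 for Ccr6, 3.12 for Ccl20 and 2.31 for Cxcr5. The ranges over the 6 libraries overlapped between all neighbours in this order, narrowly between Cxcl12 and Cxcr4. The order depends on the transcript chosen, since coding transcripts run from 358 to 2846 bases for Cxcr5, from 419 to 1755 for Ccr6 and from 1878 to 5627 for Cxcl12. On the longest transcripts, ligand exceeded receptor for the Cxcl13, Ccl21a and Cxcl12 pairs in every library.

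The exact test could not decide whether any of the 5 ratios of ligand to receptor differed between groups. The smallest p that 3 mice against 3 allow is 0.1, so none could have passed the threshold used for the genes. On the log2 scale per kb, Cxcl13 over Cxcr5 averaged 6.20 ± 0.56 in DSS and 5.29 ± 1.23 in DSS+BV (SD, n = 3; exact two-sided permutation p = 0.5). The low value was DSS+BV 1 at 3.86, with the other 5 libraries between 5.77 and 6.83. Ccl21a over Ccr7 averaged 4.90 ± 0.83 in DSS and 5.66 ± 0.78 in DSS+BV (exact p = 0.2). Cxcl12 over Cxcr4 averaged 1.72 ± 0.47 and 2.58 ± 0.77, a difference of 0.86 that is larger than either SD (exact p = 0.2). Ccl19 over Ccr7 differed by 0.26 and Ccl20 over Ccr6 by 0.16 (exact p of 0.9 and 0.8). The adjusted p over the 5 ratios was 0.5 to 0.9.

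A further 3 lists cover the pathway around these genes. Among 18 other tested homeostatic chemokines and receptors the median log2 fold change was -0.39, with 13 below 0 and 5 above, 0 called, 0 lower (9.12% of all tested genes) and 1 higher (3.4%) at an unadjusted p under 0.05. That 1 was Ccl25, the chemokine that draws CCR9+ cells to the small intestine, at 0.958, 2.49 and 1.34 CPM in DSS and 2.24, 3.89 and 4.87 CPM in DSS+BV (log2 fold change 1.199, edgeR adjusted p = 0.388). Ccl28, the mucosal epithelial chemokine and the most abundant of the list, read 129 ± 62.4 CPM and 150 ± 82.7 CPM, and its receptor Ccr10 had a log2 fold change of -1.31 (edgeR adjusted p = 0.497).

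The lymphotoxin and lymphoid organiser genes induce the stromal chemokines during lymphoid tissue development. Of 20 tested, 18 were below 0, the median was -0.54, 0 were called, and 3 were lower at an unadjusted p under 0.05; over all tested genes 51.5% were below 0 and 9.12% were lower at that p. Tnfsf14, which encodes LIGHT, a ligand of the lymphotoxin beta receptor, read 2.11 ± 0.64 CPM in the DSS mice and 0.583 ± 0.30 CPM in the DSS+BV mice (SD, n = 3), with a log2 fold change of -1.85 (edgeR adjusted p = 0.287). Tnf, a cytokine that sustains follicular stroma, differed by -1.03 and Icam1, an adhesion molecule, by -0.93 on the log2 scale (edgeR adjusted p of 0.356 and 0.394). The core pair behaved differently by library: Ltb read 9.64, 2.42 and 20.2 CPM in DSS and 14.05, 2.04 and 2.59 CPM in DSS+BV, in the high and low libraries of Cxcr5, whereas its receptor Ltbr stayed within 101 to 130 CPM throughout. Madcam1, the addressin of mucosal vessels and follicular stroma, had a log2 fold change of -1.09 (edgeR adjusted p = 0.436).

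The follicle positioning and receptor signalling list holds the oxysterol and sphingosine guidance genes and the G protein machinery of the chemokine receptors. Of 20 tested, 17 were below 0, the median was -0.46, and 0 were called. At an unadjusted p under 0.05, 2 were lower and 1 was higher, shares near the 9.12% and 3.4% of all tested genes. Without overlap between groups, 1 was lower, Cyp7b1, against 11.3% of all tested genes. In the other direction 2 were higher without overlap, 1 of them Dock8, against 6.37%. Cyp7b1, which makes the oxysterol ligand of GPR183, read 5.45, 8.83 and 10.7 CPM in DSS and 1.78, 2.29 and 2.02 CPM in DSS+BV, with no overlap (log2 fold change -2.03 with a standard error of 0.33, edgeR unadjusted p = 5.36e-04, adjusted p = 0.137). Its profile differed from those of the chemokines, since DSS 2 was not low and DSS+BV 1 was not high. S1pr2, which confines germinal centre B cells, had a log2 fold change of -0.73, and Dock8, needed for dendritic cell and lymphocyte migration, of 0.37 (edgeR adjusted p of 0.382 and 0.367). Gnai2, the inhibitory G protein subunit that chemokine receptors signal through, was the most abundant gene of the list and differed by -0.28 (edgeR adjusted p = 0.563). The medians of the 3 lists, in the order given, were -0.01, -0.11 and -0.17 without DSS 3 and -0.57, -0.99 and -0.85 without DSS+BV 1. Their size thus moved with single libraries, as that of the chemokine median did. All 3 stayed below 0 in each of the 6 fits with a library left out.

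For each of the 9 genes, the 3 genes with the most similar profile over the 6 libraries were taken by the root mean square difference of centred log2 CPM. These are descriptions over 6 points, and another measure named largely other genes. Cxcr5 was nearest to H2-Eb2, Fcrl1 and Vpreb3, of which Fcrl1 and Vpreb3 are B cell genes, with a difference of 0.085 for H2-Eb2. Ccl19 was nearest to Blk and Cd79b, both of the B cell receptor pathway, and Il9r, and Ccr6 to Il9r, Fcrl5 and Haao. Cxcl12 was nearest to Tnfsf12, Erg and Vill, with a difference of 0.057 for Tnfsf12 and 0.059 for Erg, an endothelial transcription factor. Cxcr4 was nearest to Pirb, Spi1 and Cfp, genes of myeloid cells, at 0.12 for Pirb. Cxcl13 was nearest to Ubd, Tac1 and Il13ra2, at 0.36 for Ubd, Ccl21a to Lsp1, Sh2b2 and Acsbg1, Ccr7 to Il4i1, Samsn1 and Gm14548, and Ccl20 to Gk, Capn13 and Ephb6.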

How the data were processed

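Colon RNA from 3 DSS and 3 DSS+BV mice was sequenced on a DNBSEQ-T7 instrument. The deposited values are expected counts per gene, which the authors estimated with RSEM; the submitters' processing notes name HISAT2 2.1.0, Bowtie2 2.2.5, RSEM 1.2.8 and GRCm38.p6. Of the genes, 1573 (8.51%) held fractions, since RSEM shares reads between similar genes, and values were rounded before testing. Groups and replicate numbers were taken from the sample titles. Genes passed edgeR's filter (minimum count 10, minimum total 15), and libraries were scaled by TMM. Groups were compared with edgeR 4.0.16 (R 4.3.3) by quasi-likelihood test, with adjustment over all tested genes; log2 CPM used a prior count of 2. DESeq2 1.42.0, other scalings, filters, a replicate block and each library left out were alternatives. The standard error was taken as the fold change over the root of the F statistic. Scripts were tested on simulated data. Positions and promoters are from RefSeq GRCm38.p6. The genes and lists were chosen with earlier results of these data known. In each of the 3 pathway lists the 4 genes with the smallest p and the most abundant gene could be named; in cell type lists the gene with the smallest p and the most abundant, with some defining markers such as Cd79a, Ms4a1, Cd3e and Cd4. Ltb and Ltbr were singled out after their values were seen. Same-group libraries differed far beyond counting noise (chi-square per degree of freedom 43.7 to 124.9), so all 6 were counted separately. Some genes named by these rules are not reported here.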

Additional observations from a re-analysis of the deposited data

How the results depend on the processing

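DESeq2 in place of edgeR called 1 of the 9 genes lower in DSS+BV, Cxcl13 (log2 fold change -2.29, adjusted p = 0.0447), against 1.78% of the genes it tested. The other alternatives called 0 lower and 0 higher. Among all tested genes, the fits with a library left out called at most 3 lower and 4 higher. With 1 library left out, the number lower at an unadjusted p under 0.05 ran from 0 to 8, beside 3 with all libraries: 0 without DSS+BV 2, 1 without DSS 1, DSS 3 or DSS+BV 3, and 8 without DSS+BV 1. The median of the 9 ran from -2.75, without DSS+BV 1, to -0.52, without DSS 3. Ccl19 ran from -3.24 to 0.10 and reversed without DSS 3 (0.10) and DSS+BV 2 (0.09). Relative to B cell genes, Ccr7 ran from -0.74 to 0.58 and reversed without DSS 2 (0.32) and DSS+BV 1 (0.58). Cxcr4 ran from -0.68 to 0.89 and reversed without DSS 2 (0.69), without DSS+BV 1 (0.89) and with a prior count of 0.5 (0.0499). Cxcl13 ran from -0.98 to 0.51 and reversed without DSS+BV 1 (0.51). The cause of these changes was not tested. Of 317 values recomputed, 292 kept their direction and their side of the threshold or stayed within the spread. With Pearson correlation in place of the root mean square difference, 1 of the 3 most similar genes was shared for Cxcr5, Ccl19 and Cxcr4 and 0 for the other 6. The mouse numbers do not pair the groups: the same-number correlations were 0.27, 0.25 and -0.30, and DSS 2, DSS 3, DSS+BV 1 and DSS+BV 3 correlated best with another number. With the replicate block 0 genes were called, 3 were lower at an unadjusted p under 0.05, and the median was -1.01. The 5-copy Ccl21 sum, the ligand to receptor ratios and the pathway lists with a library left out were chosen after seeing the data. Ccl21b was not analysed here, so the planned sum used Ccl21a and Ccl21c (log2 fold change -0.88). The lowest libraries held 2.64 expected counts for Ccl19 and 9 for Ccl20, which limits the precision of both; Ccl19 also had the largest spread between libraries of the 9.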

Other observations

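Plasma cell, T cell and epithelial genes add to the picture of the lymphoid libraries. Jchain, the joining chain of secreted IgA and the most abundant plasma cell gene listed, read 533, 537 and 1378 CPM in DSS and 937, 260 and 235 CPM in DSS+BV; DSS 2 was not low for Jchain as it was for the B cell genes. Of 15 T cell genes 12 had a log2 fold change below 0, with a median of -0.37 and 0 called. Cd8a was the gene with the smallest p of the list and the only one of it whose groups did not overlap, in the direction opposite to most (6.37% of all tested genes were higher without overlap). It read 5.34 ± 1.19 CPM in the DSS mice and 7.91 ± 0.84 CPM in the DSS+BV mice (SD, n = 3) (log2 fold change 0.57, edgeR adjusted p = 0.425). Cd4 differed by 0.01 (edgeR adjusted p = 0.996) and, like Ccr6, was highest in DSS+BV 1, DSS 3 and DSS 1.

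Of 8 tested genes listed for M cells and the follicle-associated epithelium, where CCL20 is made, 0 were called (edgeR). At an unadjusted p under 0.05, 4 were lower, Ccl9, Pglyrp1, Anxa5 and Marcksl1, against 9.12% of all tested genes. Tnfaip2 differed by -0.78 on the log2 scale (edgeR adjusted p = 0.401). Gp2, Spib and Tnfrsf11a differed by -0.10, -0.25 and 0.20 (edgeR adjusted p of 0.982, 0.916 and 0.777). Each of these last genes was highest in DSS+BV 1. Whether this epithelium itself differed was not tested. Ccl9, a chemokine of that epithelium, read 61.8 ± 11.2 CPM in the DSS mice and 36.8 ± 4.47 CPM in the DSS+BV mice with no overlap (log2 fold change -0.75, edgeR adjusted p = 0.245), whereas Ccl20 overlapped between groups. Of the 8 genes, 2 were lower without overlap, against 11.3% of all tested genes.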
